A study of Homo sapiens with 52 samples.

Results

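Expression of 9 target genes of the transcriptional co-activator YAP and its DNA-binding partners of the TEAD family was described in breast cancer cells depleted of neuropilin-1 (NRP1), a cell-surface receptor. The 9 genes, CCN1, CCN2, ANKRD1, AMOTL2, AJUBA, LATS2, CRIM1, F3 and TEAD1, were taken by name from the 78894 genes listed in the deposited tables, and all 9 passed the filter on low counts in every comparison. Bulk RNA sequencing covered 52 samples in 18 groups of the 3 human cell lines SUM159PT, MDA-MB-231 and HS578T. In each line, siNRP1#3 or siNRP1#5 was compared with the non-targeting siNT (20 nM of each siRNA, harvest after 72 hr), and shNRP1#3 or shNRP1#5 was compared with the non-targeting shNT (lentiviral vectors under puromycin selection, RNA taken 48 hr after seeding). The number 5 siRNA and shRNA share 1 target sequence, which is present in the transcripts of both the transmembrane and the soluble NRP1, whereas the number 3 reagents reach the transmembrane form. The number 3 siRNA and shRNA differ from each other in sequence, with offset target sites and a slightly different set of transcripts. No gene was deleted in any group, the shRNA cells are selected populations whose replicates were consecutive passages, and the controls carry the same kind of RNA or vector as the treated cells. Spread between shRNA replicates is therefore spread between passages, and an effect of the shRNA cannot be told apart from a difference between selected populations. There were 3 samples in 16 groups and 2 samples in 2 groups, namely SUM159PT siNRP1#5 and HS578T shNRP1#3.

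YAP and its relative TAZ, the product of WWTR1, enter the nucleus when the Hippo kinase cascade is inactive and bind DNA through TEAD1 to TEAD4. The kinases LATS1 and LATS2 phosphorylate YAP and TAZ and keep them in the cytoplasm, and several targets, among them LATS2, AMOTL2 and AJUBA, encode regulators of the same cascade. CCN1 and CCN2 encode secreted matricellular proteins and, with ANKRD1, serve as the usual readouts of YAP activity. In cultured cells these transcripts also respond to density, spreading and serum.

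The deposited tables held RSEM expected counts, which summed to between 25310443 and 72003442 per sample (median 44804505). NRP1 itself had a lower mean in the treated group in all 12 knockdown comparisons and fell in 11, by between 0.70 (MDA-MB-231 siNRP1#3) and 4.88 (MDA-MB-231 siNRP1#5) on the log2 scale. The exception was HS578T shNRP1#3, with a log2 fold change of -1.59 (edgeR quasi-likelihood test, Benjamini-Hochberg adjusted p = 0.069). The lines are described as claudin-low. Of 8 genes that such cells should lack, CLDN4, CLDN7, EPCAM and CLDN3 were at 161, 43.2, 24.2 and 9.33 TPM, a length-scaled share of transcripts, in MDA-MB-231 controls, against means of at most 0.983 TPM in SUM159PT and HS578T controls, so MDA-MB-231 went against the label for these 4 genes. CDH1, ESR1 and PGR were low in MDA-MB-231 too, at 0.523, 0.0367 and 0.0917 TPM, and ERBB2 was at 39.0 TPM in MDA-MB-231, 33.3 in SUM159PT and 17.6 in HS578T controls. VIM, ITGA6, ZEB1 and SNAI1, which claudin-low cells should express, were at 2522, 93.0, 12.4 and 6.97 TPM in MDA-MB-231 controls. Genes high in the controls of 1 line and near 0 in the other 2 gave an estimate of the share of another line's RNA in each sample. It rests on the expression of these genes alone, and whether they changed in the cells themselves was not tested. Over 8 such MDA-MB-231 genes, the median share was 23.9%, 16.7% and 14.6% in the 3 HS578T siNRP1#5 samples, 2.15%, 2.89% and 7.14% in HS578T siNRP1#3, and 0.547%, 0.801% and 2.20% in HS578T siNT. For HS578T siNRP1#5 replicate 2, 14 SUM159PT genes gave an estimate of 5.85%, and every other share was at most 2.20%. For HS578T siRNA samples, estimates with that share subtracted are given below for members that passed and for CCN2 and LATS2. The MDA-MB-231 amount was taken either at that line's siNT level or at its level under the same siRNA. The same fits also removed the SUM159PT share, which was 5.85% in HS578T siNRP1#5 replicate 2, or 7.97% relative to SUM159PT under the same siRNA. Estimates named below by the MDA-MB-231 share therefore had RNA of both other lines subtracted, in samples of every line. Of the members that did not pass in HS578T siNRP1#5, AMOTL2 had -0.98 (adjusted p = 0.0293) after subtraction at the siNT level and -0.61 (adjusted p = 0.146) at the siNRP1#5 level. For NRP1 in HS578T, subtraction at the control level lost the calls for siNRP1#3 (-1.23, adjusted p = 0.587) and shNRP1#5 (-2.1, adjusted p = 0.348). At the level under the same treatment both passed (-1.18, adjusted p = 0.0115, and -2.09, adjusted p = 0.00292). The siNRP1#5 estimate for NRP1 was -4.21 (adjusted p = 0.0235) or -2.34 (adjusted p = 5.12e-05). In bulk RNA, fewer cells of 1 kind and less RNA per cell cannot be told apart.

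RefSeq promoters (250 bases before to 50 after the transcription start, GRCh38.p14) were matched for 6 of the 9 members, as 8 promoters, and not for CCN1, CRIM1 and TEAD1. The 2 promoters with more than 1 copy of the core TEAD motif are shown. They were picked with the changes known, because CCN2 and ANKRD1 carried the largest, and a link between motif copies and size of change was not tested. The motif searched was GGAATG on both strands and stands in capitals, and positions are counted from the start site. CCN2 (ENSG00000118523.6) lies at chr6:131948176-131951372 on the minus strand. ANKRD1 (ENSG00000148677.7) lies at chr10:90912096-90921087, also on the minus strand.
CCN2, chr6:131951323-131951622, minus strand: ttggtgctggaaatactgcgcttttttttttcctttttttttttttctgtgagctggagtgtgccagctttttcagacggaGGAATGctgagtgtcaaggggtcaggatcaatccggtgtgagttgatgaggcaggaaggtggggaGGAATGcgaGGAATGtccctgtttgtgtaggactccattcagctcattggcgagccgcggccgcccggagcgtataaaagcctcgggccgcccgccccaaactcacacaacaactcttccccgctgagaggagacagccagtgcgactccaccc
ANKRD1, chr10:90921038-90921337, minus strand: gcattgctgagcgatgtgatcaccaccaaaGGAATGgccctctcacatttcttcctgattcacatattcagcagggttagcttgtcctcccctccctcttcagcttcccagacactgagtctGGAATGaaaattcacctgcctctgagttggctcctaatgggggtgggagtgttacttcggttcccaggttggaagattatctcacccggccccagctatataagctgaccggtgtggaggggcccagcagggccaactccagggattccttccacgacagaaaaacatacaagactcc
The CCN2 promoter held 3 copies, beginning at -169, -104 and -95, and the ANKRD1 promoter held 2, at -220 and -128. Of all 35116 promoters in the RefSeq table, 14.0% held at least 1 copy, 1.37% held 2 or more and 0.128% held 3 or more. One copy was found in a promoter of LATS2 (at 9), AMOTL2 (at -69) and AJUBA (at -59). The F3 promoter, shown because F3 passed together with CCN2 and ANKRD1 in HS578T siNRP1#3 and MDA-MB-231 siNRP1#5, held no copy of GGAATG. It held 2 copies of the AP-1 motif TGANTCA, at -223 and -210, in capitals in its sequence, and 0.515% of all promoters held 2 or more copies of that motif. The ANKRD1 promoter held 1 copy of TGANTCA, at -195, left in lower case in its sequence, and 7.71% of all promoters held at least 1. A match describes these letters and is not evidence of binding.
F3, chr1:94541710-94542009, minus strand: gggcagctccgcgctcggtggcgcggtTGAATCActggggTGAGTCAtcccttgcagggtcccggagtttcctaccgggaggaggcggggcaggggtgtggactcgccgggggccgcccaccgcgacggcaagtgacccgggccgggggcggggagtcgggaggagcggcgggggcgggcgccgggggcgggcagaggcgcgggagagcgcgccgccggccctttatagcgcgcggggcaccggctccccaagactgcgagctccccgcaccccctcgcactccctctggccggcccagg

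**Figure D1:**
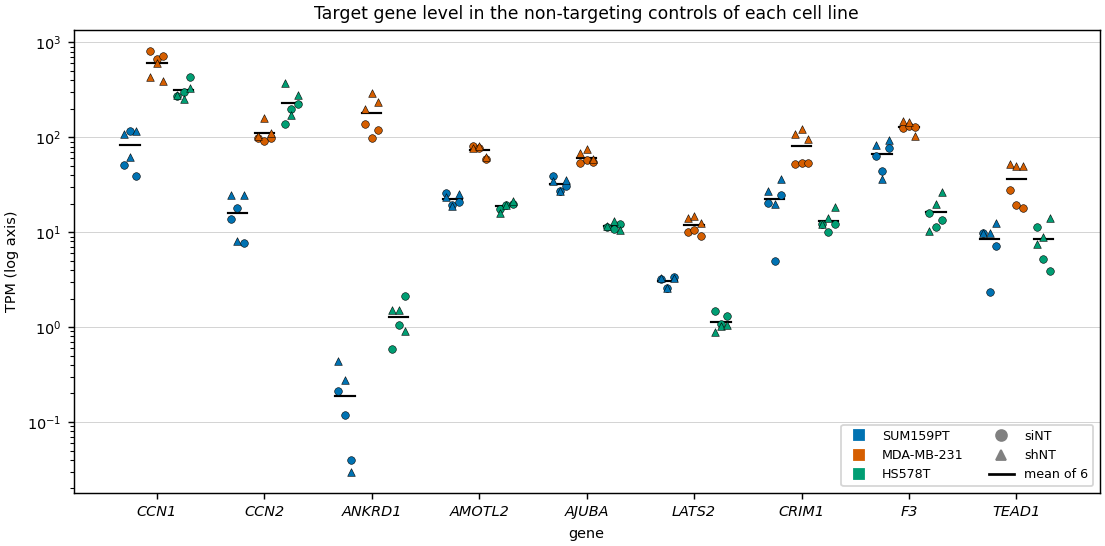
Expression of the 9 members in the non-targeting controls of each line, in TPM on a log axis. Circles are siNT samples, triangles are shNT samples and bars are the mean of 6 samples. ANKRD1 spans the widest range, from a mean of 0.187 TPM in SUM159PT to 180 TPM in MDA-MB-231.

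The 3 lines started from different levels of these genes. In the 6 non-targeting controls of each line, MDA-MB-231 had the highest mean TPM of 8 of the 9 members, and HS578T had the highest CCN2. CCN1 was the most abundant member in every line, at 603 ± 161 TPM (SD, n = 6) in MDA-MB-231, 313 ± 65.2 in HS578T and 82.5 ± 35.5 in SUM159PT. CCN2 was at 230 ± 83.9 TPM in HS578T, 110 ± 24.5 in MDA-MB-231 and 16.1 ± 7.66 in SUM159PT. ANKRD1 was at 180 ± 74.1 TPM in MDA-MB-231, 1.29 ± 0.542 in HS578T and 0.187 ± 0.157 in SUM159PT, with no overlap between lines. F3, which encodes the coagulation initiator tissue factor, was at 130 ± 16.2 TPM in MDA-MB-231, 66.3 ± 22.4 in SUM159PT and 16.2 ± 6.12 in HS578T.

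Line differences were tested on counts over all 52 samples in 1 model. SUM159PT was below MDA-MB-231 for 9 of 9 members, where 59.4% of 23416 genes tested were called in either direction. The largest gaps were ANKRD1 (log2 fold change -9.53 ± 0.606, SE), CCN1 (-2.48 ± 0.247) and CCN2 (-2.38 ± 0.305), and their adjusted p values were 2.15e-16, 1.92e-11 and 1.17e-08. HS578T was below MDA-MB-231 for 7 members and above it for CCN2 (1.83 ± 0.298, adjusted p = 1.08e-06), against 70.2% of all genes called. CCN1 did not pass there: its log2 difference was -0.17 ± 0.234 (adjusted p = 0.533), although its mean TPM was lower in HS578T. HS578T against SUM159PT, where 63.5% of genes were called, gave 6 members. CCN2 (4.21 ± 0.33), ANKRD1 (3.30 ± 0.545) and CCN1 (2.31 ± 0.245) were higher in HS578T, and F3 (-1.71 ± 0.263), AJUBA (-1.10 ± 0.193) and LATS2 (-1.03 ± 0.163) were lower. AMOTL2, CRIM1 and TEAD1 did not pass by edgeR between these lines, with log2 differences of 0.21 ± 0.158, -0.33 ± 0.263 and 0.46 ± 0.23 (adjusted p = 0.245, 0.275 and 0.0817). DESeq2 called 7 members there, TEAD1 included. Altogether 23 of 27 member comparisons between lines were called (85.2%, against 64.4% over all genes).

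YAP1 and WWTR1 were ordered differently across the lines. YAP1 was at 70.3 TPM in MDA-MB-231, 30.0 in SUM159PT and 16.1 in HS578T, whereas WWTR1 was at 45.8 TPM in HS578T, 37.6 in MDA-MB-231 and 23.2 in SUM159PT. HS578T was above SUM159PT for WWTR1 (1.35 ± 0.127, adjusted p = 4.18e-12) and below it for YAP1 (-0.59 ± 0.147, adjusted p = 0.000612). TEAD1 was highest in MDA-MB-231 at 36.3 TPM, and TEAD2 was highest in HS578T at 48.2 TPM against 33.7 in SUM159PT and 15.5 in MDA-MB-231.

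**Figure D2:**
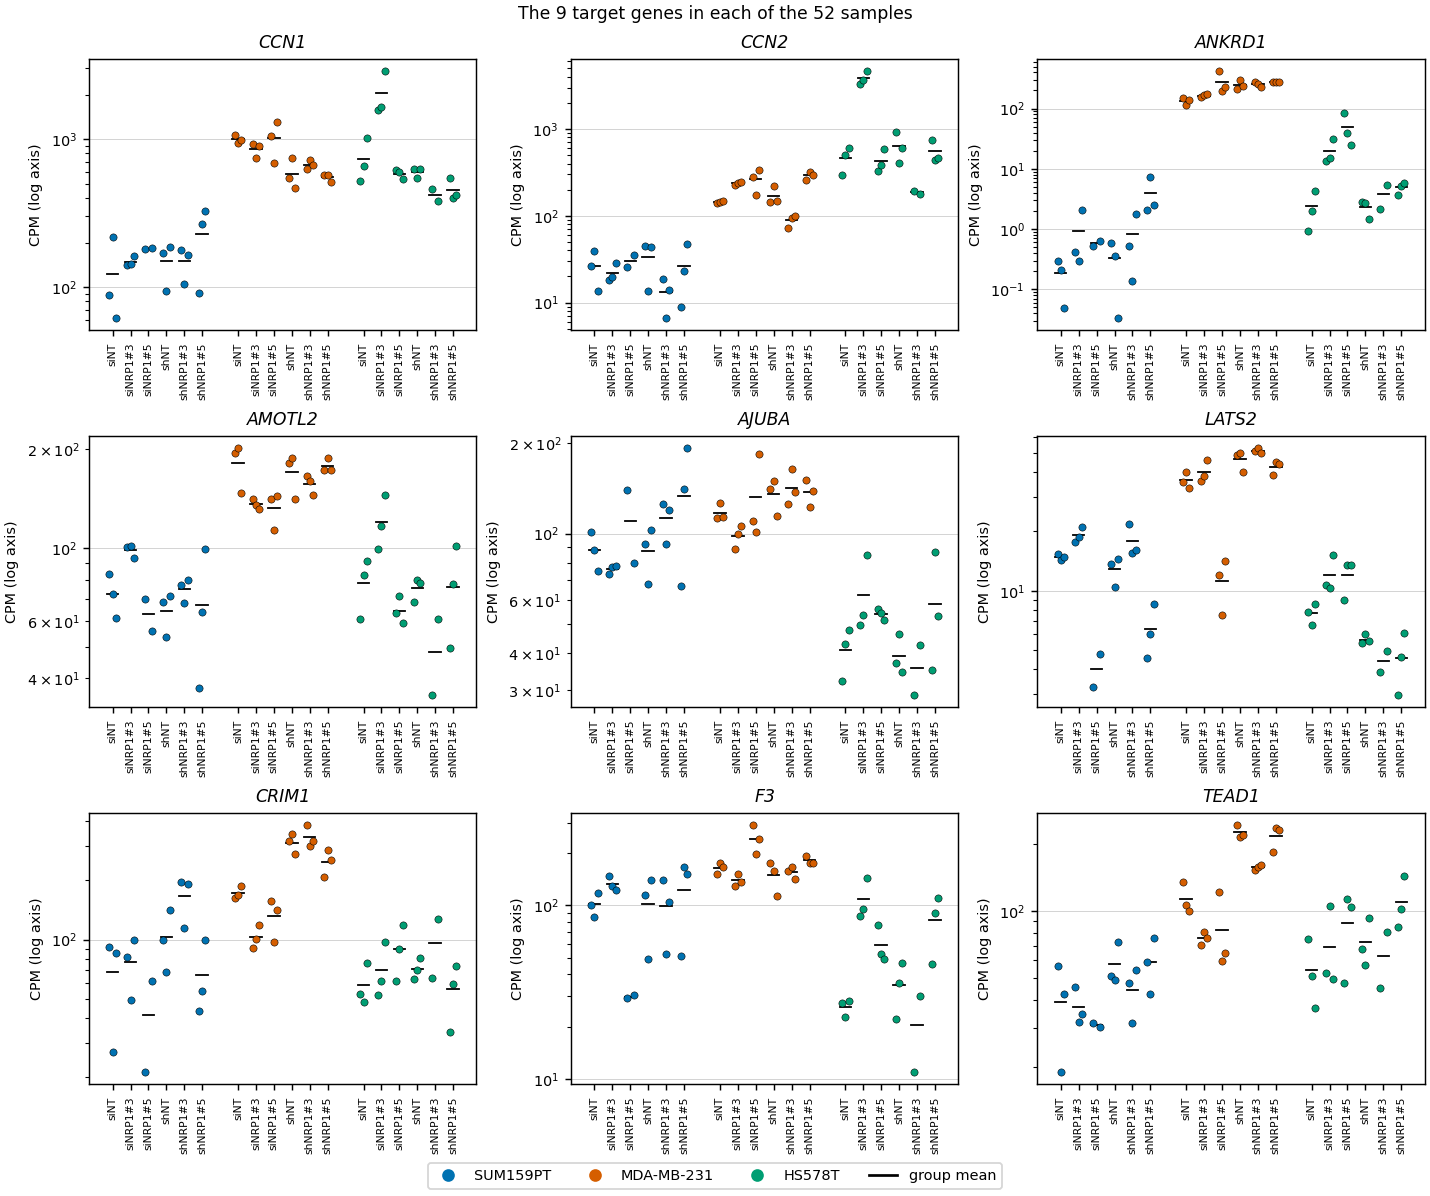
Each of the 9 members in all 18 groups, in library-scaled counts (CPM) on a log axis, with 1 point per sample and a line at the group mean. The 3 HS578T siNRP1#3 samples stand above siNT for CCN1, CCN2, ANKRD1 and F3.

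**Figure D3:**
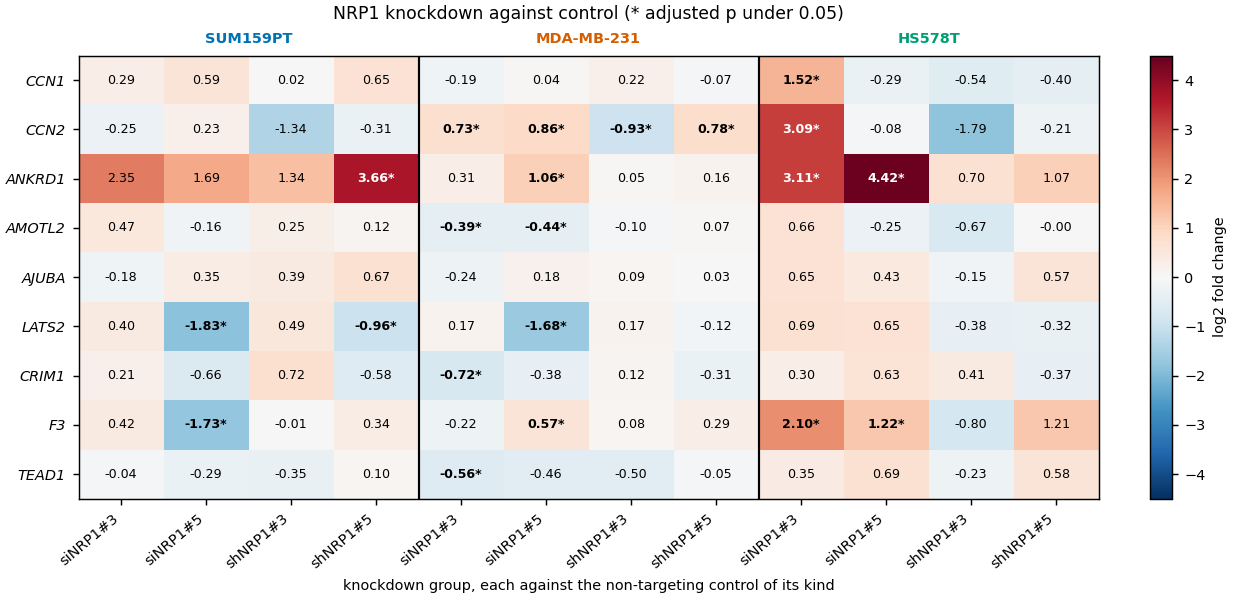
Log2 fold changes of the 9 members in the 12 knockdown comparisons (rows, genes; columns, comparisons), with an asterisk where the adjusted p was under 0.05. Of 108 cells, 12 are called higher and 9 lower.

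In the NRP1 knockdown comparisons the members changed in different directions according to line and reagent. Whether these changes follow from the loss of NRP1 was not tested. Over 12 comparisons and 9 genes, 21 of 108 pairs passed (19.4%, against 11.3% of gene and comparison pairs over all genes), 12 higher and 9 lower. CCN2 passed 5 times, ANKRD1 and F3 4 times each, LATS2 3 times, AMOTL2 2 times, and CCN1, CRIM1 and TEAD1 once each. AJUBA passed in 0 of 12 by edgeR and 0 by DESeq2, with 2 at an unadjusted p under 0.05.

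In HS578T siNRP1#3, 4 members rose and 0 fell, where 2.31% of 19661 genes rose and 2.34% fell. The median log2 fold change was 0.69 over the 9 members and 0.03 over all genes. In HS578T siNRP1#5, 2 members rose and 0 fell (10.1% of genes rose and 8.53% fell). For HS578T shNRP1#3, 0 members passed by edgeR and 1, CCN2, by DESeq2, with 2 at an unadjusted p under 0.05, and 0.00509% of genes rose and 0.0305% fell. For HS578T shNRP1#5, 0 passed by either tool, with 1 at an unadjusted p under 0.05, and 0.275% of genes rose and 0.671% fell.

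In MDA-MB-231, where 18800 genes were tested, with siNRP1#3 1 member rose and 3 fell (11.4% of genes rose and 14.3% fell), and with siNRP1#5 3 rose and 2 fell (14.4% and 14.9%). With shNRP1#3 1 member fell there (1.46% of genes rose and 2.19% fell) and with shNRP1#5 1 rose (8.79% and 11.9%). In SUM159PT, where 20067 genes were tested, 2 members fell with siNRP1#5 (9.0% of genes rose and 8.89% fell), and 1 rose and 1 fell with shNRP1#5 (3.24% and 2.7%). SUM159PT siNRP1#3 (3.16% rose and 5.5% fell) and shNRP1#3 (0.339% and 1.06%) passed for 0 members by edgeR and by DESeq2, with 1 member each at an unadjusted p under 0.05.

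CCN2, the connective tissue growth factor, passed more often than any other member. In HS578T siNRP1#3 it was at 3293, 3643 and 4604 CPM, against 295, 501 and 597 CPM in siNT. All 3 treated samples lay above every siNT sample, an 8.54-fold rise (log2 fold change 3.09 ± 0.332, adjusted p = 0.000126), and the estimate was 3.16 with the MDA-MB-231 share subtracted. The other sequence left CCN2 in HS578T at 327, 383 and 585 CPM, within the siNT range (-0.08 ± 0.306, adjusted p = 0.889), and the estimate was 0.19 (adjusted p = 0.723) or 0.12 (adjusted p = 0.844) after subtraction at the siNT or siNRP1#5 level.

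In MDA-MB-231 the CCN2 levels were 225, 240 and 244 CPM with siNRP1#3 and 279, 172 and 334 CPM with siNRP1#5, against 142, 143 and 149 CPM with siNT. Neither treated group overlapped the controls, and both rose (0.73 ± 0.182, adjusted p = 0.00619, and 0.86 ± 0.182, adjusted p = 0.0014). The 2 shRNAs, of which shNRP1#3 does not carry the siNRP1#3 sequence, parted. The shNRP1#3 samples were at 72.2, 94.9 and 98.7 CPM and the shNRP1#5 samples at 261, 320 and 294 CPM, around shNT at 145, 220 and 149 CPM. CCN2 fell with shNRP1#3 (-0.93 ± 0.183, adjusted p = 0.00599) and rose with shNRP1#5 (0.78 ± 0.182, adjusted p = 0.00553). The shNRP1#3 call was lost without shNT replicate 2 (-0.71, adjusted p = 0.053). The shNRP1#3 comparisons in the other lines gave negative values that did not pass. CCN2 was at 192 and 179 CPM in HS578T shNRP1#3 against 923, 408 and 597 CPM in shNT (-1.79 ± 0.366, adjusted p = 0.0942), and at 18.9, 6.67 and 14.0 CPM in SUM159PT shNRP1#3 against 44.3, 13.8 and 43.7 CPM (-1.34 ± 0.561, adjusted p = 0.325).

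CCN1 (ENSG00000142871.18, chr1:85580761-85584589, plus strand), the relative of CCN2 also known as CYR61, passed in 1 of the 12 comparisons. HS578T siNRP1#3 samples were at 1581, 1659 and 2865 CPM against 521, 660 and 1015 CPM with siNT. The groups did not overlap, and CCN1 rose 2.87-fold (1.52 ± 0.258, adjusted p = 0.00291), or by 1.59 on the log2 scale with the MDA-MB-231 share subtracted. In MDA-MB-231, where CCN2 passed with all 4 reagents, the CCN1 log2 fold changes lay between -0.19 and 0.22 and none passed.

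**Figure D4:**
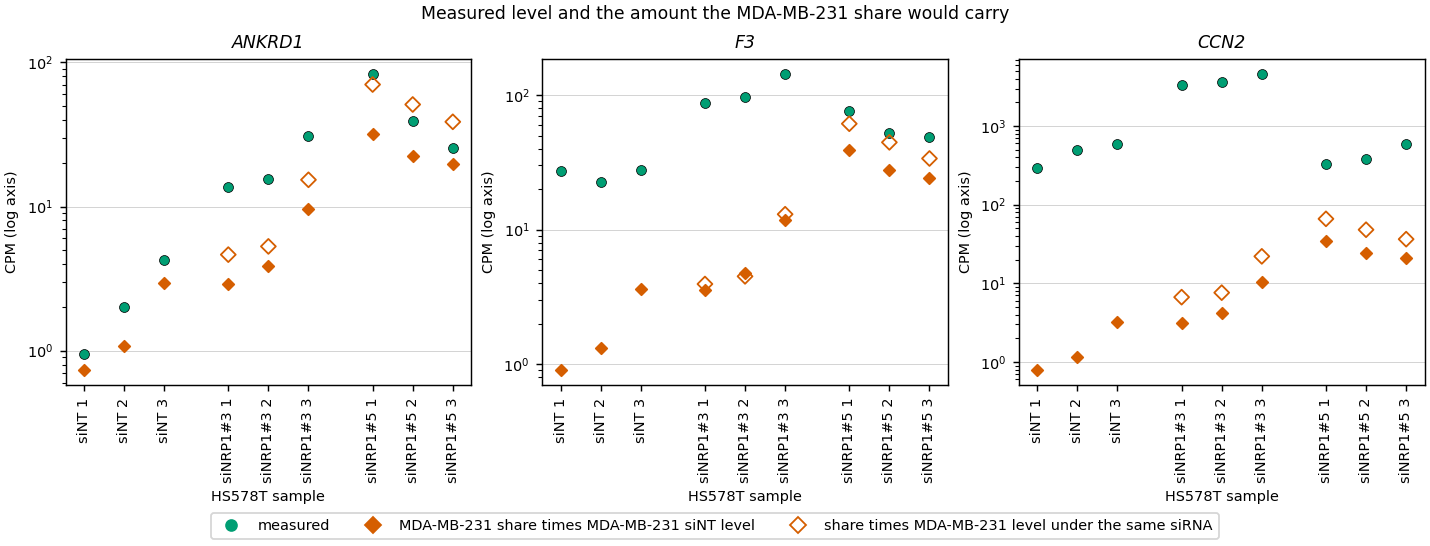
ANKRD1, F3 and CCN2 in the 9 HS578T siRNA samples, in CPM on a log axis, measured (circles) and as the amount that the MDA-MB-231 share would carry at the siNT level of MDA-MB-231 (filled diamonds) or at its level under the same siRNA (open diamonds). For ANKRD1 in siNRP1#5 the open diamonds lie at 70.2, 51.0 and 38.7 CPM beside measured values of 83.2, 39.1 and 25.3 CPM, whereas for CCN2 in siNRP1#3 the open diamonds lie at 6.66, 7.60 and 22.0 CPM, far below the measured values.

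ANKRD1 encodes an ankyrin repeat protein found in the nucleus and in the muscle sarcomere. Its log2 fold change was above 0 in 12 of 12 comparisons, the lowest being 0.046 in MDA-MB-231 shNRP1#3, and passed in 4. Comparisons within a line share controls, and how many of all genes keep 1 sign throughout was not counted. In MDA-MB-231 siNRP1#5 it was at 415, 192 and 228 CPM against 151, 114 and 138 CPM with siNT, with no overlap, and rose 2.09-fold (1.06 ± 0.207, adjusted p = 0.000787). With siNRP1#3 it was at 153, 167 and 173 CPM there (0.31 ± 0.205, adjusted p = 0.282).

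In HS578T, ANKRD1 was at 0.943, 2.02 and 4.23 CPM with siNT, 13.6, 15.4 and 30.8 CPM with siNRP1#3 and 83.2, 39.1 and 25.3 CPM with siNRP1#5. Neither treated group overlapped siNT, and the fits gave 8.63-fold with siNRP1#3 (3.11 ± 0.56, adjusted p = 0.00455) and 21.5-fold with siNRP1#5 (4.42 ± 0.59, adjusted p = 0.000232). Since ANKRD1 was far higher in MDA-MB-231, the MDA-MB-231 share at that line's siNT level would carry 2.89, 3.89 and 9.60 CPM of the siNRP1#3 values and 32.1, 22.4 and 19.6 CPM of the siNRP1#5 values. In siNT it would carry 0.736, 1.08 and 2.95 of the 0.943, 2.02 and 4.23 CPM. With this subtracted the log2 fold changes were 4.26 (adjusted p = 0.00778) and 5.40 (adjusted p = 0.000939), values that rest on controls brought close to 0 and are no firmer than the measured ones. At the level of MDA-MB-231 cells under the same siRNA, the share would carry 70.2, 51.0 and 38.7 CPM in siNRP1#5, more than was measured in replicates 2 and 3. In siNRP1#3 it would carry 4.64, 5.29 and 15.3 CPM, less than was measured in each replicate. Both calls were then lost (siNRP1#3 3.94, adjusted p = 0.166, and siNRP1#5 2.99, adjusted p = 0.183). The siNRP1#3 estimate had an SE of 1.47 on controls near 0, and whether the rest arose in HS578T cells was not tested. For siNRP1#5, an ANKRD1 change in HS578T cells themselves and RNA of MDA-MB-231 cannot be told apart.

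SUM159PT expressed ANKRD1 near the limit of detection, with 29, 18 and 2 counts in the shNT samples and 99, 409 and 108 counts in shNRP1#5. On the CPM scale these were 0.590, 0.362 and 0.0336 against 2.08, 7.30 and 2.50, which did not overlap (3.66 ± 0.999, adjusted p = 0.0397). The MDA-MB-231 share in these shNRP1#5 samples, 0.337%, 0.690% and 0.0616%, would carry 0.839, 1.72 and 0.153 CPM. In shNT it would carry 0.486, 0.284 and 0.146 CPM, most of what was measured in replicates 1 and 2 and more than was measured in replicate 3. With it subtracted the estimate was 5.72 (adjusted p = 0.00882), which rests on controls near 0 and is no firmer than the measured one. The call was lost when any of 5 of the 6 samples was left out (log2 fold changes of 2.86 to 4.41), shNRP1#5 replicate 3 being the exception.

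AMOTL2, AJUBA and LATS2 encode regulators of the Hippo cascade. LATS2 (ENSG00000150457.9, chr13:20973036-21061586, minus strand) fell in 3 comparisons, each with a number 5 reagent. MDA-MB-231 siNRP1#5 samples were at 12.0, 7.49 and 14.2 CPM against 35.7, 40.1 and 33.1 CPM with siNT, and SUM159PT siNRP1#5 samples at 3.24 and 4.80 CPM against 15.4, 14.3 and 14.8 CPM. Neither pair of groups overlapped, and the log2 fold changes were -1.68 ± 0.169 (adjusted p = 5.56e-07) and -1.83 ± 0.296 (adjusted p = 0.00116). In SUM159PT shNRP1#5 LATS2 was at 4.58, 6.03 and 8.55 CPM against 13.7, 10.5 and 14.5 CPM with shNT, again without overlap (-0.96 ± 0.248, adjusted p = 0.03). That call was lost without shNRP1#5 replicate 1 or 2 or without shNT replicate 1 or 3 (-0.76 to -0.92).

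The same sequence left LATS2 in MDA-MB-231 shNRP1#5 at 38.7, 45.0 and 43.9 CPM, overlapping shNT at 48.7, 50.2 and 40.3 CPM (-0.12 ± 0.161, adjusted p = 0.647). HS578T siNRP1#5 samples were at 8.96, 13.5 and 13.5 CPM against 7.80, 6.70 and 8.60 CPM with siNT, a positive value that did not pass (0.65 ± 0.272, adjusted p = 0.103). Of the treated values, 8.66, 6.06 and 5.30 CPM would come from MDA-MB-231 RNA at its siNT level. The estimate was -0.20 (adjusted p = 0.846) after subtraction at that level and 0.82 (adjusted p = 0.0732) at the siNRP1#5 level, so the sign for LATS2 in HS578T depends on the level assumed. With the number 3 reagents LATS2 did not pass in any line, and its log2 fold changes lay between -0.38 and 0.69.

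AMOTL2 (ENSG00000114019.15, chr3:134355347-134375479, minus strand) encodes a junctional scaffold that binds YAP. It fell in MDA-MB-231 with both siRNAs, at 142, 135 and 132 CPM with siNRP1#3 and 141, 113 and 144 CPM with siNRP1#5 against 195, 202 and 148 CPM with siNT. All treated samples lay below every siNT sample, by small amounts (-0.39 ± 0.133, adjusted p = 0.0382, and -0.44 ± 0.133, adjusted p = 0.0182). The siNRP1#3 call was lost without any 1 of its 3 treated samples or siNT replicate 1 or 2 (adjusted p from 0.0615 to 0.15), and the siNRP1#5 call without siNRP1#5 replicate 2 or siNT replicate 1 or 2 (0.0777 to 0.0852). AJUBA (ENSG00000129474.17, chr14:22971177-22982551, minus strand), a LIM protein that restrains LATS kinases, had log2 fold changes between -0.24 and 0.67.

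F3 (ENSG00000117525.14, chr1:94529173-94541759, minus strand) rose in 3 comparisons and fell in 1. HS578T siNRP1#3 samples were at 86.7, 96.0 and 144 CPM against 27.3, 22.8 and 27.9 CPM with siNT, without overlap, a 4.28-fold rise (2.10 ± 0.399, adjusted p = 0.00606) that was 2.19 after the MDA-MB-231 share was subtracted (adjusted p = 0.0119). HS578T siNRP1#5 samples were at 76.7, 52.1 and 49.1 CPM (1.22 ± 0.39, adjusted p = 0.0375). Of these, 39.4, 27.5 and 24.1 CPM would come from MDA-MB-231 RNA at its siNT level and 61.3, 44.5 and 33.8 CPM at its siNRP1#5 level. The estimate was 0.60 (adjusted p = 0.362) in the first case and -0.57 (adjusted p = 0.434) in the second, and the call was also lost when any 1 of the 6 samples was left out (0.95 to 1.36, adjusted p from 0.0517 to 0.136).

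In MDA-MB-231, F3 was at 290, 198 and 241 CPM with siNRP1#5 against 152, 176 and 168 CPM with siNT, without overlap (0.57 ± 0.144, adjusted p = 0.00547). In SUM159PT the direction was the opposite: 29.1 and 30.3 CPM with siNRP1#5 against 101, 86.3 and 118 CPM (-1.73 ± 0.495, adjusted p = 0.0247). The SUM159PT call was lost without siNRP1#5 replicate 2 or 3 (adjusted p = 0.0964 and 0.0932), which leaves 1 treated sample assumed to vary like the other groups. In HS578T shNRP1#5, F3 was at 45.7, 90.9 and 111 CPM against 22.2, 35.9 and 46.8 CPM and did not pass (1.21 ± 0.388, adjusted p = 0.131).

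CRIM1 (ENSG00000150938.10, chr2:36355778-36551135, plus strand), a transmembrane protein that binds bone morphogenetic proteins, and TEAD1 (ENSG00000187079.20, chr11:12674421-12944737, plus strand) passed in MDA-MB-231 siNRP1#3 alone among the 12 comparisons. CRIM1 was at 90.2, 101 and 118 CPM against 162, 168 and 187 CPM with siNT (-0.72 ± 0.165, adjusted p = 0.00349). TEAD1 was at 70.2, 80.6 and 76.0 CPM against 135, 106 and 99.7 CPM (-0.56 ± 0.195, adjusted p = 0.0397). Both groups lay below every siNT sample. The TEAD1 call was lost when any siNRP1#3 sample, siNT replicate 1 or 2 or shNT replicate 3 was left out (adjusted p up to 0.173).

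The 2 kinds of control differed for some members in MDA-MB-231. Between shNT and siNT, where 20.6% of genes were called in that line, 4 members passed. CCN1 was at 542, 742 and 468 CPM with shNT against 1063, 939 and 988 CPM with siNT (-0.82 ± 0.175, adjusted p = 0.00266). TEAD1 was at 242, 215 and 219 CPM against 135, 106 and 99.7 CPM (0.93 ± 0.195, adjusted p = 0.00242), and CRIM1 at 317, 342 and 272 CPM against 162, 168 and 187 CPM (0.79 ± 0.165, adjusted p = 0.00223). ANKRD1 was also higher with shNT (0.84 ± 0.206, adjusted p = 0.0078). In SUM159PT and HS578T, where 14.4% and 17.9% of genes were called, 0 members passed by edgeR or DESeq2 and 0 had an unadjusted p under 0.05. Delivery, selection, culture time and passage differ together between shNT and siNT and cannot be told apart.

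Because the number 5 siRNA and shRNA share a target sequence, their effects were compared directly within each line, as the siNRP1#5 effect minus the shNRP1#5 effect. In MDA-MB-231, where 23.7% of genes differed, the effects differed for LATS2 (-1.56 ± 0.232, adjusted p = 9.2e-05) and ANKRD1 (0.90 ± 0.29, adjusted p = 0.0315). The ANKRD1 call was lost without siNRP1#5 replicate 1, siNT replicate 2, shNT replicate 2 or 3 or any shNRP1#5 sample (0.52 to 0.93, adjusted p up to 0.0969). For CCN2 the difference was 0.09 ± 0.256 (adjusted p = 0.85). In HS578T, where 0.854% of genes differed, ANKRD1 passed (3.36 ± 0.757, adjusted p = 0.0472). This call was lost with the MDA-MB-231 share subtracted at the siNT level (4.32, adjusted p = 0.0761) or the siNRP1#5 level (2.01, adjusted p = 0.755). It was also lost without any 1 of 11 samples: each shNRP1#5 sample and replicates 1 and 2 of siNRP1#5, siNT, shNT and siNRP1#3 (2.68 to 3.54). In SUM159PT, where 2.51% of genes differed, 0 members passed by edgeR and 1, F3, by DESeq2 (edgeR -2.08 ± 0.639, adjusted p = 0.0862), with 2 at an unadjusted p under 0.05.

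Whether a reagent had the same effect in the 3 lines was tested by 1 test of unequal effects per gene. For siNRP1#3 the effects on CCN2 (adjusted p = 0.00148) and F3 (adjusted p = 0.0138) differed between lines, where 3.42% of all genes did. The CCN2 values were 3.09 in HS578T, 0.73 in MDA-MB-231 and -0.25 in SUM159PT. For siNRP1#5, where 18.2% of genes differed, LATS2 (adjusted p = 3.44e-07), F3 (adjusted p = 0.000632) and ANKRD1 (adjusted p = 0.01) differed between lines. LATS2 values were 0.65 in HS578T against -1.68 in MDA-MB-231 and -1.83 in SUM159PT, and its difference did not pass once the MDA-MB-231 share was subtracted at the siNT level (adjusted p = 0.0798). The ANKRD1 difference was lost after subtraction at the siNRP1#5 level (adjusted p = 0.504). For shNRP1#5, where 3.81% of genes differed, ANKRD1 passed (adjusted p = 0.0457), and was lost after subtraction at the level under the same shRNA (adjusted p = 0.135) and with a replicate block (adjusted p = 0.071). With 1 replicate number left out of every group the calls were lost for CCN2 (without replicate 1 or 2), for F3 under siNRP1#3 (without 2 or 3) and siNRP1#5 (without 3), and for ANKRD1 under siNRP1#5 (without 1 or 2) and shNRP1#5 (without any), with adjusted p from 0.0666 to 0.642, and LATS2 passed in all 3 of these fits. For shNRP1#3, where 0.747% of genes differed, 0 members passed by edgeR or DESeq2, with 1 at an unadjusted p under 0.05.

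Other genes of the pathway were read from 3 lists. Of 15 further YAP and TAZ targets, 41 of 180 gene and comparison pairs passed (22.8%, against 11.3% over all genes), 18 higher and 23 lower. GADD45A, a growth arrest and DNA damage response gene, rose in HS578T with siNRP1#3 (1.57, adjusted p = 0.000464) and siNRP1#5 (1.66, adjusted p = 0.000151) and in MDA-MB-231 with shNRP1#3 (1.04, adjusted p = 0.00196) and shNRP1#5 (0.87, adjusted p = 0.00224). IGFBP3, an insulin-like growth factor binding protein, rose by 3.02 in SUM159PT shNRP1#5 (adjusted p = 0.00936, but 0.0561 without shNT replicate 1), whereas in MDA-MB-231 its log2 fold change was -0.99 with siNRP1#3 and 0.70 with siNRP1#5. The transcription factor gene FOXF2 fell in SUM159PT siNRP1#3 (-1.35, adjusted p = 0.003) and in MDA-MB-231 with both siRNAs (-0.43 and -1.09) and rose there with shNRP1#5 (0.66). ARHGEF17 fell in MDA-MB-231 with both siRNAs and shNRP1#5 (-0.61, -0.74 and -0.54) and in HS578T siNRP1#5 (-1.23). In HS578T siNRP1#5, GADD45A was 1.96 and ARHGEF17 -1.53 after subtraction at the siNT level. In MDA-MB-231, calls were lost for FOXF2 with siNRP1#3 (without siNRP1#3 replicate 1 or 2, siNT replicate 2 or shNRP1#5 replicate 3, adjusted p up to 0.225), for ARHGEF17 with siNRP1#3 (without siNRP1#3 replicate 1 or 2, up to 0.0633) and for ARHGEF17 with shNRP1#5 (without any of the 6 samples, up to 0.105).

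Of 7 factors of the YAP, TAZ, TEAD and VGLL families, 11 of 84 pairs passed (13.1%, near the 11.3% over all genes), 9 higher and 2 lower. WWTR1 rose with both siRNAs in MDA-MB-231 (0.67 and 0.52), whereas YAP1 fell in MDA-MB-231 siNRP1#3 (-0.50, adjusted p = 0.0125, but 0.0702 without siNT replicate 1). VGLL4, which competes with YAP for TEAD, rose with both siRNAs in MDA-MB-231 (0.68 and 0.57). TEAD3 rose with siNRP1#5 in MDA-MB-231 (0.48). TEAD4 fell in MDA-MB-231 siNRP1#3 (-0.64) and rose in shNRP1#5 (0.53), a call lost without shNRP1#5 replicate 2 or shNT replicate 3 (adjusted p up to 0.0759). In SUM159PT siNRP1#5, WWTR1 (0.64) and TEAD3 (0.54) passed narrowly, and the calls were kept in only 4 and 2 of 17 fits that left out 1 sample (adjusted p up to 0.429 and 0.238).

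Of 15 Hippo kinases and upstream regulators, 20 of 172 pairs passed (11.6%, near the 11.3% over all genes), 5 higher and 15 lower. MAP4K4, a kinase acting on LATS1 and LATS2, fell in 6 comparisons, 3 in SUM159PT (siNRP1#3 -1.82, siNRP1#5 -1.06 and shNRP1#5 -0.73) and 3 in MDA-MB-231 (siNRP1#3 -0.46, siNRP1#5 -0.37 and shNRP1#5 -0.56). Of these calls, 3 were lost with 1 sample left out: SUM159PT shNRP1#5 (without shNRP1#5 replicate 1 or 2 or shNT replicate 1), MDA-MB-231 siNRP1#3 (without siNRP1#3 replicate 1 or 2) and siNRP1#5 (without siNRP1#5 replicate 2 or 3 or siNT replicate 1 or 3), with adjusted p up to 0.0906, 0.0528 and 0.106. AMOTL1, the relative of AMOTL2, fell in MDA-MB-231 with siNRP1#5 (-1.21, adjusted p = 5.68e-07), shNRP1#3 (-0.44) and shNRP1#5 (-0.41). The 2 shRNA calls for AMOTL1 were kept in 4 and 14 of 18 fits that left out 1 sample (adjusted p up to 0.147 and 0.0958), the second being lost without shNRP1#5 replicate 1 or 2 or shNT replicate 1 or 3. LIMD1, a LIM protein related to AJUBA, fell in SUM159PT siNRP1#3 (-1.11) and in MDA-MB-231 siNRP1#3 (-0.83) and shNRP1#5 (-0.57). Its SUM159PT call was lost without any siNRP1#3 sample or siNT replicate 2 (adjusted p up to 0.112). WWC1, the scaffold KIBRA, fell in MDA-MB-231 with both siRNAs (-0.89 and -0.53) and was higher in HS578T siNRP1#5 (1.69), where the estimate was 0.03 (adjusted p = 0.964) with the MDA-MB-231 share subtracted at the siNT level and 1.09 (adjusted p = 0.0309) at the siNRP1#5 level.

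**Figure D5:**
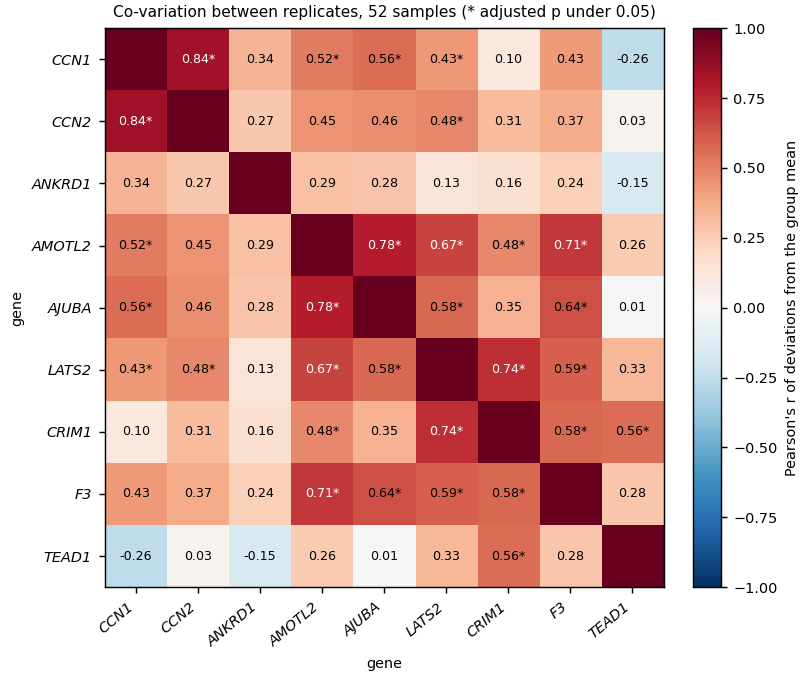
Pearson correlation between members of the deviation of log2 CPM from the sample's own group mean, over 52 samples (rows and columns, genes), with an asterisk where the permutation p adjusted over 36 pairs was under 0.05. CCN1 with CCN2 has the highest value, 0.843, and the ANKRD1 row has no asterisk.

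Within groups, samples of the same treatment still differed, and some members moved together. The deviation of each sample's log2 CPM from its group mean was correlated over 52 samples for all 36 pairs, with permutation within groups. That permutation treats samples of a group as exchangeable and takes no account of replicate numbers shared between groups, so these p values may be too small. For 15 pairs, all positive, Pearson's r passed after adjustment over the 36 pairs, and for 13 of them Spearman's coefficient passed as well. How many pairs of other genes would pass was not counted, so the count is not shown to be particular to these members. CCN1 and CCN2 had r = 0.843 and a Spearman coefficient of 0.759 (permutation p = 1e-05, the smallest possible here, and 2e-05, adjusted 0.00018 and 0.00024). The value was 0.814 without the 2 samples farthest from the median and 0.91, 0.839 and 0.603 within SUM159PT, MDA-MB-231 and HS578T. AMOTL2 and AJUBA had r = 0.784 and a Spearman coefficient of 0.734 (adjusted permutation p = 0.00223 and 0.00024), 0.692 without 2 samples and 0.949, 0.425 and 0.726 within the lines. LATS2 and CRIM1 had r = 0.736 and a Spearman coefficient of 0.791 (adjusted permutation p = 0.00018 and 0.00024), 0.721 without 2 samples and 0.701, 0.744 and 0.902 within the lines.

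The sign was the same in all 3 lines for 14 of the 15 pairs. CCN2 with LATS2 was the exception (r = 0.48, and -0.0782 within HS578T). ANKRD1 passed with 0 of the 8 other members, with r between -0.15 and 0.336, by Pearson's or Spearman's coefficient after adjustment. Within lines its r was not tested. It lay between -0.0931 (AJUBA) and 0.732 (TEAD1) in MDA-MB-231 and between -0.471 (TEAD1) and 0.65 (AMOTL2) in HS578T. In SUM159PT, where ANKRD1 was near the limit of detection, it lay between -0.079 (TEAD1) and 0.302 (CCN2). The count of pairs that passed was 26 of 36 on log2(TPM + 1) in place of log2 CPM. It fell to 3, 0 and 11 without replicates 1, 2 and 3, so the pairs that pass depend on the scale and on the replicates used. Depth, density and passage differ between samples of 1 group, and their part was not tested.

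Over all groups, after the mean of each line and kind of reagent was removed, the gene most like CCN1 among 16331 genes was CCN2 (r = 0.722 over 52 samples), followed by the unnamed gene ENSG00000257086 (0.656), DAPK3 (0.655), KLC3 (0.655) and PXDC1 (0.645). The genes most like CCN2 were CCN1 (0.722), KLC3 (0.72), GBX2-AS1 (0.663), RAP1GAP2 (0.661) and the unnamed ENSG00000291228 (0.658). For ANKRD1 they were TMCC3 (0.786), ANXA3 (0.774), GPAT2 (0.764), ESAM (0.758) and PDGFB (0.753), none of them a member. These correlations describe the samples, and the MDA-MB-231 share in HS578T siRNA samples enters them.

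In members listed with more than 1 transcript, the changes above were not accompanied by a switch of the leading transcript. For each member the same protein-coding transcript held the largest share of the gene's TPM in all 18 groups. CCN2 and ANKRD1 are listed with 1 transcript, so no switch could be seen for them. The leading transcript held 89.0% to 100% of the group mean for LATS2 and 51.6% to 60.5% for AMOTL2. It held 61.7% (HS578T siNRP1#3) to 82.6% (MDA-MB-231 siNT) for F3, and the widest spread was that of CCN1-201, from 35.6% in SUM159PT shNRP1#5 to 68.5% in MDA-MB-231 siNRP1#3.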

How the data were processed

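Poly(A)-selected, strand-specific libraries were sequenced from 52 samples. Per the labels and methods, the authors trimmed reads with Trim Galore 0.6.5, aligned them to GRCh38 with STAR 2.7.2b and estimated expression with RSEM 1.3.3. They deposited expected counts and TPM per gene and, per transcript, the percent of a gene's expression. Outlier samples removed by the authors are not analysed here. Expected counts were rounded, filtered (filterByExpr), TMM-scaled and fitted with edgeR 4.0.16 (R 4.3.3, robust quasi-likelihood), 1 model per line and 1 over all samples, with Benjamini-Hochberg adjustment over all genes tested and a threshold of 0.05. CPM are TMM-scaled and SE is the log2 fold change divided by the root of F. Alternatives were DESeq2 1.42.0, RLE scaling, no filter, a replicate block, 2-group fits, leave-one-out fits and subtraction of another line's RNA at its control level or, chosen after seeing the data, its level under the same treatment. Markers of that RNA averaged at most 0.5 CPM in the own line's controls, at most 1 CPM in the third line's and at least 20 CPM in each control of the source line. The first marker rule left 0 genes for MDA-MB-231 and was relaxed after seeing the data. The fitting steps were tested on simulated data. Correlations used log2 CPM (prior count 2) and 100000 permutations. The members and gene lists were chosen with earlier results of these data known. Further genes named were, per list, the 4 with the most calls, then the largest change, beside YAP1 and WWTR1. Same-numbered samples deviated together (every correlation over 0.1 over 3 pairs) in 4 of 12 knockdown comparisons, SUM159PT siNRP1#3 and shNRP1#3, MDA-MB-231 siNRP1#5 and HS578T shNRP1#5 (0.122 to 0.663), where a replicate block changed 0 member calls. Replicates are separate cultures or passages, and no 2 agreed within sampling noise.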

Additional observations from a re-analysis of the deposited data

Results flagged for a closer look

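Effects that differed between lines or between reagents, by a test of the difference itself (edgeR, adjusted over all genes), were found for 4 members. Of all genes, 3.42% differed between lines under siNRP1#3, 18.2% under siNRP1#5 and 3.81% under shNRP1#5. Between siNRP1#5 and shNRP1#5, 23.7% differed in MDA-MB-231 and 0.854% in HS578T.

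LATS2 differed between the 3 lines under siNRP1#5 (adjusted p = 3.44e-07) and between siNRP1#5 and shNRP1#5 in MDA-MB-231 (adjusted p = 9.2e-05). Its log2 fold changes with siNRP1#5 were 0.65 for HS578T, -1.68 for MDA-MB-231 and -1.83 for SUM159PT. The HS578T value was -0.20 or 0.82 after subtraction of the MDA-MB-231 share at that line's siNT or siNRP1#5 level, and the difference between lines was then at adjusted p = 0.0798 or 1.36e-07.

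F3 differed between lines under siNRP1#5 (adjusted p = 0.000632), with log2 fold changes of 1.22 for HS578T, 0.57 for MDA-MB-231 and -1.73 for SUM159PT, and under siNRP1#3 (adjusted p = 0.0138). The HS578T value under siNRP1#5 was 0.60 or -0.57 after the 2 subtractions, and the difference between lines was kept (adjusted p = 0.00587 and 0.0114). CCN2 differed between lines under siNRP1#3 (adjusted p = 0.00148).

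ANKRD1 differed between lines under siNRP1#5 (adjusted p = 0.01) and shNRP1#5 (adjusted p = 0.0457), and between siNRP1#5 and shNRP1#5 in HS578T (adjusted p = 0.0472) and MDA-MB-231 (adjusted p = 0.0315). The siNRP1#5 difference between lines was lost after subtraction at the siNRP1#5 level (adjusted p = 0.504) and the shNRP1#5 one after subtraction at the level under the same shRNA (adjusted p = 0.135). The HS578T same-sequence call was lost after either subtraction (adjusted p = 0.0761 and 0.755). The HS578T siNRP1#5 samples lie behind the siNRP1#5 values of ANKRD1, F3 and LATS2. For them the marker genes gave an estimated 14.6% to 23.9% of MDA-MB-231 RNA, and ANKRD1 is high in MDA-MB-231.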

How the results depend on the processing

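Of the 21 knockdown calls, 13 were kept in every fit that left out 1 sample and 12 under every other setting. The count was 30 without the filter, 22 by DESeq2 and 17 with only the 2 groups compared. It was 18 to 24 with 1 sample left out and 18 with RNA of the other lines subtracted at its level under the same treatment. F3 in HS578T siNRP1#5 turned to -0.57 (adjusted p = 0.434) in that last subtraction. With only the 2 groups compared, adjusted p was 0.0596 for F3 and 0.0745 for LATS2 in SUM159PT siNRP1#5, 0.0602 for LATS2 in SUM159PT shNRP1#5, and 0.0594 for F3 and 0.144 for AMOTL2 in MDA-MB-231 siNRP1#5. The 4 control calls stood in every setting and the line calls, 23, became 21 to 24. Without replicate 2, F3 and AJUBA no longer differed between SUM159PT and MDA-MB-231 (-0.36, adjusted p = 0.336, and -0.37, adjusted p = 0.197). The count of members with unequal effects in the 3 lines was 6 and became 11 without the filter and 2 to 4 with 1 replicate number left out. The 3 same-sequence calls became 2 to 4. Co-variation, 15 pairs, became 26 on log2(TPM + 1) and 0 to 11 with 1 replicate number left out.

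By the rule of 3 pairs each over 0.1, the replicate numbers paired the samples in 4 of 12 knockdown comparisons. Of the other 8, 2 have 2 pairs and could not meet that rule. Their correlations were also over 0.1, at 0.131 and 0.393 for SUM159PT siNRP1#5 and 0.24 and 0.532 for HS578T shNRP1#3. Each of the rest had at least 1 correlation under 0.1. Over 43 pairs, between-control pairs included, the correlation of deviations was -0.26 to 0.663, over 0.1 in 27. With the number as a replicate block the counts were 20 knockdown, 4 control, 3 same-sequence, 22 line and 7 unequal-effect calls. In the 4 paired comparisons the block changed 0 member calls. Elsewhere 5 calls were lost: ANKRD1 in SUM159PT shNRP1#5 (3.62, adjusted p = 0.0529), in the HS578T same-sequence difference (3.54, adjusted p = 0.0521) and in the unequal effects of shNRP1#5 (adjusted p = 0.071), and F3 and AJUBA in SUM159PT against MDA-MB-231 (-0.69, adjusted p = 0.0818, and -0.52, adjusted p = 0.0749).

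Low expression limits ANKRD1 in SUM159PT, where 2 control samples had 2 counts each. With 2 or 3 samples a group, values that did not pass are not shown to be equal.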
